A study of Homo sapiens with 24 samples.

Results

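RNA levels of 8 genes of bone morphogenetic protein (BMP) signalling were followed in SW480 cells, an established line from a human colon cancer: the transcription factor ATOH8, the inhibitors of DNA binding ID1, ID2 and ID3, the inhibitory SMADs SMAD6 and SMAD7, the ligand BMP4 and the decoy receptor BAMBI. Every probe that the array's annotation gives to these genes was taken, 11 of the 47323 probes on the array, and 11 of 11 passed the detection filter that kept 21608 probes. ID1, ID2 and SMAD7 have 2 probes each, called probe 1 (the brighter) and probe 2 here, and probes of 1 gene are not independent. ATOH8 was chosen from its measured difference between the lines with an inserted gene and the control line in these same data. The other genes were added with results of these data known. The differences from the control line are therefore given as a description, without a test.

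The arrays were Illumina HumanHT-12 bead arrays. SW480 cells carried the pBABE-puro retroviral vector, either empty (the control line) or with BOP1, a ribosome biogenesis factor, CKS2, a partner of cyclin-dependent kinases, or NFIL3, a bZIP transcription factor. The lines with an inserted gene are called the transduced lines below, although the control line carried the empty vector. All 12 groups were kept for 24 h in solvent or inhibitor, in medium with fetal calf serum. In DMSO, the solvent, there were 4 groups: the control line and the lines labelled BOP1, CKS2 and NFIL3. The BOP1 line also received LY294002 (a PI3 kinase inhibitor, 3.3 µM), SP600125 (a JNK inhibitor, 33.3 nM) and DAPT (a gamma-secretase inhibitor that blocks Notch activation, 667 nM). The CKS2 line received LY294002 and SB203580 (a p38 MAP kinase inhibitor, 3.3 µM). The NFIL3 line received LY294002, SB203580 and Rapamycin (an mTOR inhibitor, 33.3 nM), each LY294002 and SB203580 dose being the same in every line. Only DMSO was given to the control line, each group had 2 arrays, and the labels do not say whether a line is a clone or a pool.

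BMP ligands bind paired serine/threonine kinase receptors, which phosphorylate SMAD1, SMAD5 and SMAD9; these join SMAD4 and enter the nucleus. ID1, ID2 and ID3 are classic direct targets, and SMAD6, SMAD7 and BAMBI are induced targets that dampen the receptors, so that the pathway limits itself. ATOH8 is a basic helix-loop-helix (bHLH) factor known as a BMP target in endothelial and liver cells. ID proteins are helix-loop-helix proteins without a DNA-binding region, which hold E proteins, the partners of bHLH factors, away from DNA. In the colon, BMP activity is known to be highest in the differentiating upper crypt and to be held down by secreted antagonists at the crypt base.

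The promoters of ATOH8, ID1, ID3 and SMAD6, the members that moved most, and of BAMBI, the richest in the searched words, are shown. BAMBI had the smallest range of group means of all member probes, 0.59 log2 units. Each is the 300 bases from 250 before to 50 after the RefSeq transcription start on GRCh38.p14, 5′ to 3′ on the gene's strand, in lower case. Capitals mark GTCT on either strand (AGAC on the other), the SMAD box word, and GGCGCC, a GC-rich word that BMP SMADs are known to bind and that reads the same on both strands. All 8 genes were found in the RefSeq promoter table, SMAD7 and BMP4 with 3 starts each.
ATOH8 promoter (chr2:85753741-85754040, + strand): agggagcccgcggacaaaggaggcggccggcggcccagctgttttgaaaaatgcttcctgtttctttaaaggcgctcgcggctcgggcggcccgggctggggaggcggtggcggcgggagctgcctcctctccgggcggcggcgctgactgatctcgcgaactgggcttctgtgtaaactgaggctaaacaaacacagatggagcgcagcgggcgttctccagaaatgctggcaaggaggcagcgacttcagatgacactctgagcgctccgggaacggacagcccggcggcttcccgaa
ID1 promoter (chr20:31605039-31605338, + strand): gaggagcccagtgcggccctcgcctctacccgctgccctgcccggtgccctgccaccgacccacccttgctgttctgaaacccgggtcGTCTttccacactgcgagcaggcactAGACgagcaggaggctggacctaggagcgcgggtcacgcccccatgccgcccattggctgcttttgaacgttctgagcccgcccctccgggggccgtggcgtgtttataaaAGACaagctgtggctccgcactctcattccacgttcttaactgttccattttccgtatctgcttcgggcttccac
ID3 promoter (chr1:23559452-23559751, - strand): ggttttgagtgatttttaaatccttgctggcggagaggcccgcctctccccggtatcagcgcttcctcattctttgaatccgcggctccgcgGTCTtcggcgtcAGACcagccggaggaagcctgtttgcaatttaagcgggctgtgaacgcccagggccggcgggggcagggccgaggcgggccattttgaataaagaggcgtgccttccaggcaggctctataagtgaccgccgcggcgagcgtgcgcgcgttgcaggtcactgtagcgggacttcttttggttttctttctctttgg
SMAD6 promoter (chr15:66701986-66702285, + strand): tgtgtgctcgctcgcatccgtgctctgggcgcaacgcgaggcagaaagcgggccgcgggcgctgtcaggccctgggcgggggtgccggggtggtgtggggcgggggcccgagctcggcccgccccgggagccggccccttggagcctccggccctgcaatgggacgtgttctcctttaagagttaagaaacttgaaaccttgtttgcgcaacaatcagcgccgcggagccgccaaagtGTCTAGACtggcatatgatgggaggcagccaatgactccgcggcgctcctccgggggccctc
BAMBI promoter (chr10:28677271-28677570, + strand): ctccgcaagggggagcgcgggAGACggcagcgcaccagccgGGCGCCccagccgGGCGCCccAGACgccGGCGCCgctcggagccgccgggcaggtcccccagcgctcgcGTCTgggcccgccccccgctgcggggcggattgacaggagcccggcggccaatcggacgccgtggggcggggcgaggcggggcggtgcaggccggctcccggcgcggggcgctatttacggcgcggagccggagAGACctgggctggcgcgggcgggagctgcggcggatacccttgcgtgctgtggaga

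GGCGCC was found 3 times in the BAMBI promoter and 2 times in 1 BMP4 promoter, and in none of the other members' promoters. Of all 35116 promoters of this length, 19.2% held it. GTCT was found 3 times before ID1, 2 times each before ID3 and SMAD6 and 4 times before BAMBI, but the word stands in 84% of all promoters. ATOH8 had neither word in this window; it held 3 matches to CANNTG, the E box word bound by bHLH factors, which is in 68.7% of promoters and reads as itself on both strands. These matches are letters in a window and show no binding, and no match says only that the letters are not there.

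**Figure D1:**
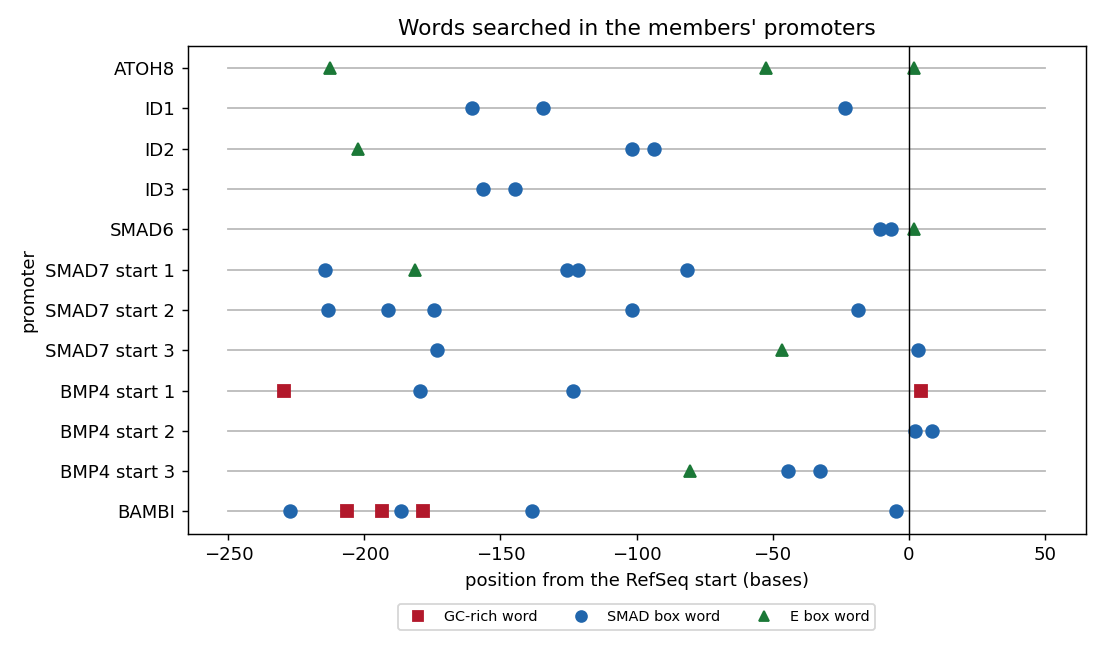
Positions of the GC-rich word (GGCGCC, squares), the SMAD box word (GTCT, circles) and the E box word (CANNTG, triangles) in 12 promoters of the 8 genes, in bases from the RefSeq start, which is the vertical line. The ATOH8 row holds 3 triangles and no other mark, and the BAMBI row holds 3 squares and 4 circles.

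Across the arrays, the mean raw signal ran from 970.8 to 1366, and 17984 to 19958 probes (38% to 42.2%) were detected, that is, had a detection p under 0.01. Arrays of 1 group correlated at r = 0.99 to 0.996 across probes, which are not independent replicates. Of the 4 probes of the introduced genes, 0 were higher in their own line; the BOP1 probe stood at 12.89 in the BOP1 line and 13.45 in control on the log2 scale (limma adjusted p = 0.00187, lower), 1 of the 2 CKS2 probes was also lower in its line (-0.43, limma adjusted p = 0.0247), and the others had no call. The arrays thus do not check the line labels, and the sources used here do not give where the probes lie relative to the inserts. Of 12 colon epithelial markers 7 were kept, with EPCAM at 14.70 in the control line, while CDX1, VIL1, CDH17 and LGALS4 were detected on no array. Of 9 endothelial markers 7 were detected on no array, including PECAM1, CDH5 and KDR, and so were 8 of 10 fibroblast markers and 7 of 11 leukocyte markers on the array. SMAD4 was detected in every group, with log2 means between 11.84 and 12.08.

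All levels below are log2 normalized intensities, on which 1 unit is a factor of 2 and no probe can be set against another. The detection p shows how firmly a level is measured: 10 of the probes were detected on all 24 arrays and ATOH8 on 18.

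ATOH8 was at background in the control line and present in all 3 transduced lines. Its levels on the control arrays were 5.44 and 5.02, with raw signals of 133 and 110.7 and detection p-values of 0.0597 and 0.277. In DMSO the BOP1 line stood at 7.31 and 7.14, the CKS2 line at 7.04 and 7.04, and the NFIL3 line at 7.26 and 7.32. These 6 arrays lay above both control arrays, with raw signals of 242.3 to 261.5. Since both control arrays were not well above background, the differences are bounds: the BOP1 line's mean was at least 1.96-fold higher, the CKS2 line's at least 1.72-fold and the NFIL3 line's at least 2.05-fold. Such a bound sets the brighter group's mean against the higher, on each dim array, of the probe's own level and the lowest level of any detected probe. In bulk RNA, fewer cells that express a gene and less RNA per cell cannot be told apart.

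SB203580 brought ATOH8 back to background in both lines that received it. Its levels were 5.36 and 5.07 in CKS2 cells and 5.82 and 4.89 in NFIL3 cells, with detection p-values of 0.0169 to 0.462, so ATOH8 was not well above background on any of these 4 arrays. Against DMSO, ATOH8 in CKS2 cells was at least 1.85-fold lower (limma adjusted p = 0.000301) and in NFIL3 cells at least 2.29-fold lower (limma adjusted p = 0.000178). The measured means were 5.21 against 7.04 and 5.35 against 7.29. With the 4 NFIL3 arrays alone the adjusted p was 0.0712. The fitted log2 differences of -1.82 and -1.93 became -0.89 and -1.01 in the authors' processed table, so their size depends on the processing while the calls held. ATOH8 was chosen because these lines' DMSO arrays differed from the control line, and the same DMSO arrays are the reference here. It passed the detection filter only through the groups where it was high. Its p-values here are therefore a description and no independent test. ATOH8 may also have been chosen with this comparison known.

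No other inhibitor took ATOH8 to background. Under LY294002 it stood at 7.01 and 6.96 in BOP1 cells, 7.55 and 7.15 in CKS2 cells, and 7.29 and 7.23 in NFIL3 cells. It was 6.94 and 6.79 under SP600125, 6.97 and 7.23 under DAPT, and 7.33 and 6.97 under Rapamycin. SP600125 and DAPT were given only to the BOP1 line, which did not receive SB203580, and neither gave a call on any kept probe. The difference from DMSO over the 3 LY294002-treated lines was 0.01 (95% interval -0.27 to 0.30), and the largest single one was -0.36 under SP600125 (SE 0.23, limma adjusted p = 0.571). In order of level, the 9 groups with ATOH8 detected ran from 7.35 (CKS2 line, LY294002) to 6.87 (BOP1 line, SP600125), with steps of 0.03 to 0.12 between neighbours, each below the standard error of 0.23. The 3 groups at background lay below all 9 and have no order among themselves.

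**Figure D2:**
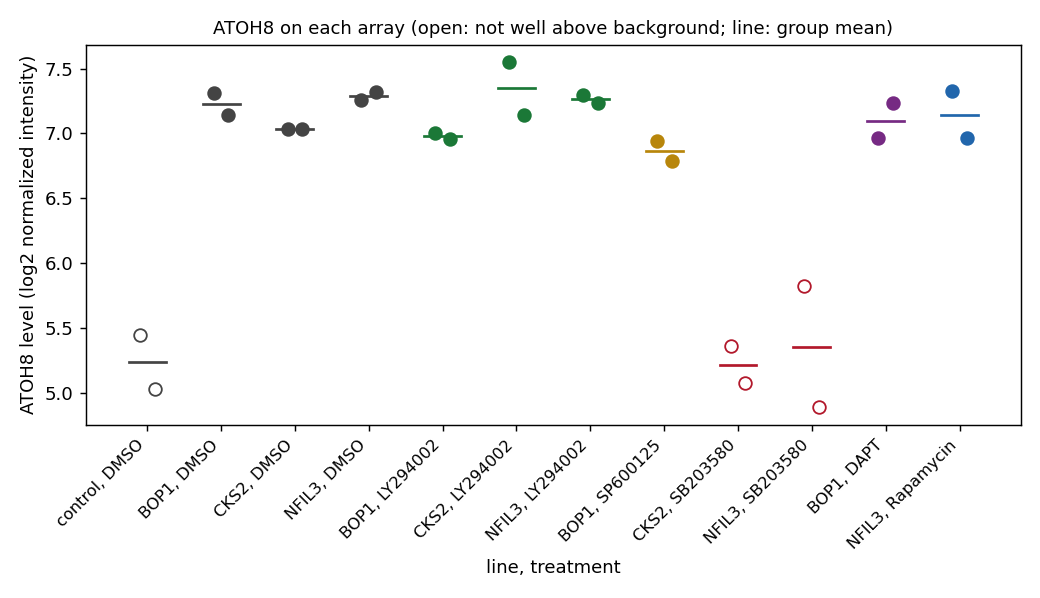
ATOH8 level (log2 normalized intensity) on each of the 24 arrays by line and treatment, 2 points a group, with a line at each group mean; open points are arrays where the probe was not well above background. The control line in DMSO and both SB203580 groups lie between 4.89 and 5.82, and the other 9 groups between 6.79 and 7.55.

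The ID genes, which keep E proteins from DNA, were higher in the 3 transduced lines than in the control line as well, by less than ATOH8. ID3 was 12.18 and 12.55 in the control line, 13.26 and 12.97 in BOP1 cells, 12.95 and 13.13 in CKS2 cells, and 12.99 and 12.93 in NFIL3 cells. The groups do not overlap, and the differences were 0.76, 0.68 and 0.60 (SE 0.14). ID2 probe 1 was 12.31 and 12.27 in the control line and between 12.53 and 13.06 in the other DMSO groups, differing by 0.67, 0.58 and 0.35. Its second probe gave smaller differences of 0.34, 0.30 and 0.29. ID1 probe 1 was 13.51 and 13.58 in the control line and 13.83 to 14.11 in the others, a difference of 0.30 to 0.45, and ID1 probe 2 differed by 0.33 to 0.41.

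SMAD6, which blocks BMP receptor signalling, was 8.78 and 8.75 in the control line and 9.24 to 9.41 in the other lines in DMSO, and differed by 0.57, 0.59 and 0.57. BMP4 differed by 0.41, 0.60 and 0.30, and BAMBI, a receptor-like protein without a kinase, by 0.28, 0.45 and 0.40. The probes of SMAD7, which acts on both the BMP and the TGF-beta receptors, did not go together. Probe 1 differed by 0.09, -0.07 and -0.19, while probe 2 lay above the control line in each line, by 0.13, 0.22 and 0.15. The transduced line's arrays did not overlap the control arrays for 10, 11 and 10 of the 11 probes in the BOP1, CKS2 and NFIL3 lines, and for 60.1%, 60% and 58.1% of all kept probes in either direction. With the threshold used elsewhere, a limma adjusted p under 0.05 over all kept probes, 6, 7 and 3 of the 11 probes would count as higher and 0 as lower. Over all probes 6.3%, 6.42% and 6.05% were higher and 4.73%, 4.57% and 4.66% lower; since these comparisons chose ATOH8, nothing is read from these counts. All 3 comparisons share the 2 control arrays.

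Between the transduced lines in DMSO the members did not differ past the threshold. The largest difference was that of ID2 probe 1 between the BOP1 and NFIL3 lines, 0.32 (95% interval -0.04 to 0.68, limma adjusted p = 0.697), followed by BMP4 between the CKS2 and NFIL3 lines, 0.30 (0.02 to 0.57, limma adjusted p = 0.736). Of the 11 probes 1, in the CKS2 against the NFIL3 line, had an unadjusted p under 0.05 by limma. Over all kept probes 721 did for the BOP1 against the CKS2 line. For the BOP1 against the NFIL3 line 1615 did, and for the CKS2 against the NFIL3 line 1406. Of the 11 probes 0 passed the threshold in each of the 3 pairs. Over all probes the shares were 0.00463% for the BOP1 against the CKS2 line, 0.00463% for the BOP1 against the NFIL3 line and 0% for the CKS2 against the NFIL3 line.

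**Figure D3:**
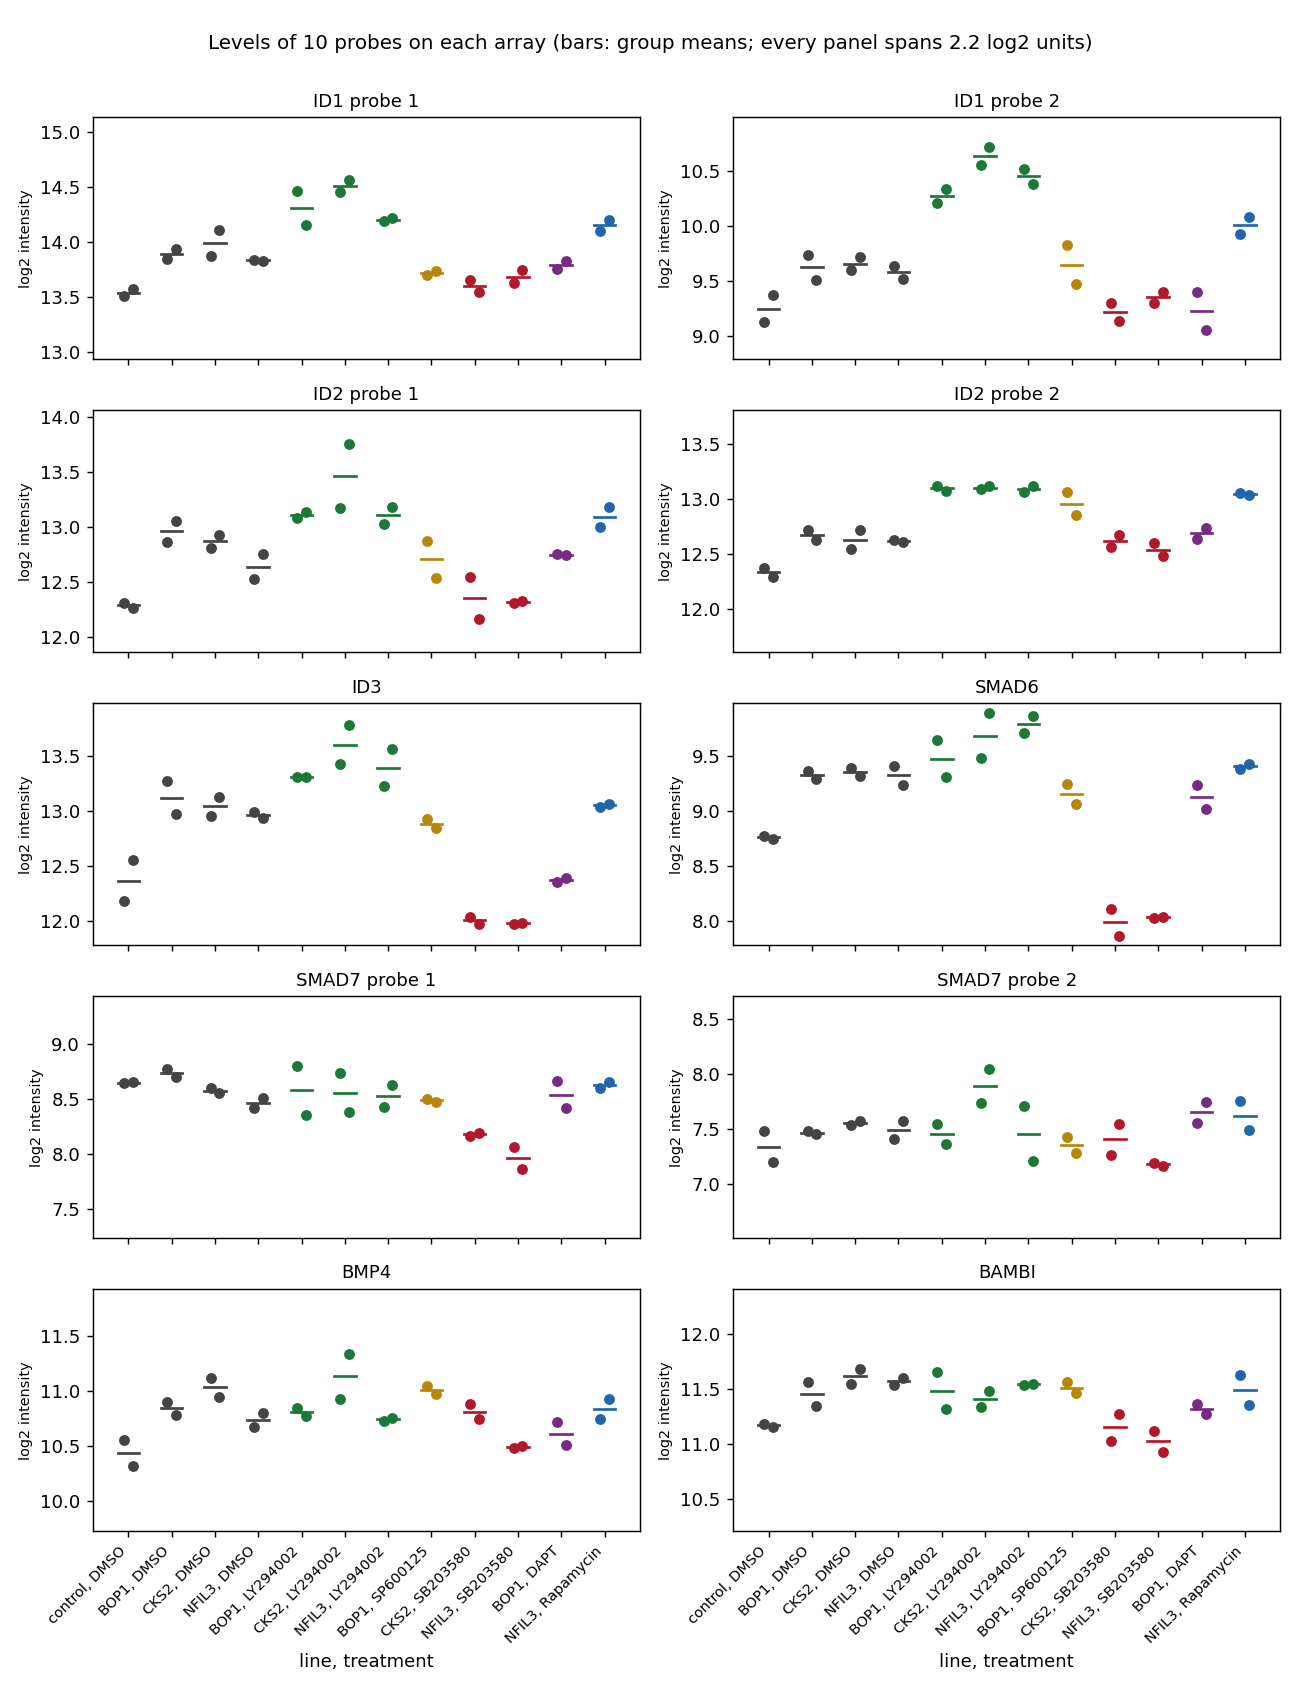
Level (log2 normalized intensity) of the other 10 probes on each array by line and treatment, with 2 points and a bar at the mean for each group; each panel spans the same range. ID3 and SMAD6 are lowest in the 2 SB203580 groups, at 11.97 to 12.04 and 7.87 to 8.11, and ID1 probe 2 is highest in the 3 LY294002 groups, at 10.21 to 10.72.

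SB203580 lowered SMAD6 and ID3 in both lines, beside ATOH8. SMAD6 fell from 9.39 and 9.33 to 8.11 and 7.87 in the CKS2 line, a log2 difference of -1.37 (SE 0.14, limma adjusted p = 4.86e-05). In the NFIL3 line it fell from 9.41 and 9.24 to 8.03 and 8.04, a difference of -1.29 (SE 0.14, limma adjusted p = 9.47e-05). These are the lowest SMAD6 levels of the 24 arrays, below the control line.

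ID3 fell from 12.95 and 13.13 to 12.04 and 11.97 in the CKS2 line (-1.03, SE 0.14, limma adjusted p = 0.000566). In the NFIL3 line it fell from 12.99 and 12.93 to 11.97 and 11.98 (-0.99, SE 0.14, limma adjusted p = 0.000712). The calls of SMAD6 and ID3 held when any 1 array was left out; with the 4 NFIL3 arrays alone the adjusted p was 0.0605 for each, in a fit that called 0 of 21608 probes.

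BAMBI, the decoy receptor, fell less. It went from 11.55 and 11.68 to 11.03 and 11.27 in the CKS2 line (-0.46, SE 0.13, limma adjusted p = 0.0361) and from 11.54 and 11.60 to 11.12 and 10.92 in the NFIL3 line (-0.55, SE 0.13, limma adjusted p = 0.0161). Neither call held under every left-out array. In the CKS2 line the adjusted p rose to 0.102, 0.189 and 0.241 without DMSO array 1, DMSO array 2 and SB203580 array 1, and in the NFIL3 line to 0.0599, 0.0985 and 0.133 without DMSO array 1, DMSO array 2 and SB203580 array 2.

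SMAD7 probe 1 was lower in the NFIL3 line, 8.06 and 7.86 against 8.41 and 8.51 (-0.50, SE 0.14, limma adjusted p = 0.0363), a call lost without any 1 of the 4 arrays (adjusted p 0.0608 to 0.222). In the CKS2 line it differed by -0.40 (limma adjusted p = 0.0902), and SMAD7 probe 2 differed by -0.15 and -0.31 with no call. ID1 probe 1 was lower in the CKS2 line, 13.66 and 13.55 against 13.87 and 14.11 (-0.39, SE 0.11, limma adjusted p = 0.0344). That call was lost without DMSO array 2 (0.257), SB203580 array 1 (0.0833) or SB203580 array 2 (0.188), and the NFIL3 difference was -0.15 (limma adjusted p = 0.421). ID1 probe 2 had differences of -0.44 and -0.23 and ID2 probe 1 of -0.51 and -0.33, none past the threshold, while ID2 probe 2 lay at -0.01 and -0.08. BMP4, the ligand, differed by -0.22 and -0.24 (limma adjusted p = 0.312 and 0.265).

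In each line 5 of the 11 probes fell under SB203580 and 0 rose, against 4.94% lower and 4.48% higher over all probes for CKS2 and 5.44% and 4.47% for NFIL3. ATOH8, whose choice used the same DMSO arrays, is among those that fell in both lines. The other members were also chosen with results of these data known, and probes of 1 gene are not independent. The member counts, here and for the other inhibitors below, are therefore a description set beside the share over all probes. All 11 differences lay below zero in both lines. Their median was -0.44 for CKS2 and -0.33 for NFIL3, with -0.02 and -0.01 over all probes. The difference between the lines in the SB203580 effect reached the threshold for 0 members and for 0% of all probes (887 at an unadjusted p under 0.05 by limma, 0 of them members); its widest member interval was that of ATOH8, from -0.58 to 0.81. Set beside the control line in DMSO, the SB203580-treated arrays lay below both control arrays for 3 probes for CKS2 and 5 for NFIL3, above both for 2 and 2, and overlapped them for 6 and 4. Over all kept probes 30.5% and 30.6% lay below both control arrays and 26.3% and 26.2% above, so that with 2 arrays a group these counts set the members little apart.

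Of 132 other genes of the pathway and its partners, listed with earlier results of these data known, 79 were tested. Under SB203580, the CKS2 line had 12 that fell and 2 that rose, and the NFIL3 line 8 and 2, with medians of -0.04 and -0.11. Over all probes 4.94% were lower and 4.48% higher in the first line and 5.44% and 4.47% in the second, with medians of -0.02 and -0.01. GATA2, a zinc finger factor and known BMP target, fell by 1.00 and 1.01 on the log2 scale (SE 0.12, limma adjusted p = 0.000193 and 0.000177), from 9.04 to 8.04 and from 8.88 to 7.86. Its level in the control line was 8.10 and in the BOP1 line 9.11. With the 4 NFIL3 arrays alone its adjusted p was 0.0647. TBX3, a T-box factor, fell by 0.53 in the CKS2 line (limma adjusted p = 0.0178) and differed by -0.28 in the NFIL3 line (limma adjusted p = 0.201). TGFB3, a TGF-beta ligand, was not well above background on any SB203580 array. Against DMSO it was at least 1.26-fold lower for CKS2 cells (means 5.61 and 6.49, limma adjusted p = 0.0158) and at least 1.62-fold lower for NFIL3 cells (5.99 and 6.79, 0.0266). ZNF503, a zinc finger repressor, rose by 0.57 and 0.70 (limma adjusted p = 0.0215 and 0.00744), COL1A1, a collagen chain, fell by 0.55 and 0.71 (limma adjusted p = 0.0273 and 0.00783), and TOB1, a repressor of SMAD activity, fell by 0.42 and 0.47 (limma adjusted p = 0.0224 and 0.0133). These 5 genes lost calls with 1 array fewer. In the CKS2 line ZNF503 (adjusted p 0.0623 to 0.14) and TOB1 (up to 0.187) lost theirs without any 1 of the 4 arrays, TBX3 (0.0512 to 0.141) and TGFB3 (0.0763 to 0.194) without either DMSO array or SB203580 array 2, and COL1A1 (0.11 to 0.282) without either DMSO array or SB203580 array 1. In the NFIL3 line TGFB3 (0.0585 to 0.167) lost its call without any 1 array, TOB1 (0.0543 to 0.117) without either DMSO array or SB203580 array 1, COL1A1 without DMSO array 1 (0.0716) or SB203580 array 2 (0.0587), and ZNF503 without DMSO array 2 (0.0982). SMAD4, the common partner of the receptor SMADs, differed by -0.10 (limma adjusted p = 0.538) and 0.14 (limma adjusted p = 0.368).

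The marker lists of other cell types were read beside these changes. ESAM, the only endothelial marker kept of 9, was higher under SB203580 in the CKS2 line by 0.53 (limma adjusted p = 0.00506) and differed by 0.31 in the NFIL3 line (0.0691). The summed linear level of that list was 216.1 in the control line, 238.1 and 248.7 in the SB203580 groups and 165.6 to 248.7 over all groups. The fibroblast list, with 2 of 10 kept, summed to 204.4 in the control line and to 178.8 and 160.8 under SB203580, within 160.8 to 261.9 over all groups. The leukocyte list, with 4 of 11 kept, summed to 422.2 in control, 422.1 and 478.3 in DMSO in the CKS2 and NFIL3 lines and 588.2 and 560.9 under SB203580, within 422.1 to 737 over all groups. Its members moved in opposite directions: CD68, a lysosomal protein, rose by 1.02 and 0.80 (limma adjusted p = 0.003 and 0.0141), while LYZ, lysozyme, was called lower and was not well above background under SB203580. LYZ was at least 1.04-fold lower for CKS2 cells (5.53 against 6.21, limma adjusted p = 0.0323) and at least 1.52-fold lower for NFIL3 cells (5.70 against 6.70, 0.00422). ITGAM, an integrin, was called lower for CKS2 cells (5.49 against 6.12, limma adjusted p = 0.0496) but was not well above background there and allows no fold. Among the 7 kept epithelial markers CDH1, E-cadherin, fell by 0.45 and 0.46 (limma adjusted p = 0.021 and 0.0203), and the other 6 had no call in either line. The part of these levels in the members' changes was not tested.

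LY294002 moved the ID genes the other way. Over the 3 lines, ID1 probe 2 was higher than in DMSO by 0.83 (SE 0.08, limma adjusted p = 1.69e-06) and ID1 probe 1 by 0.43 (SE 0.06, limma adjusted p = 4.8e-05). ID1 probe 2 stood at 9.73 and 9.51 in DMSO and 10.21 and 10.34 under LY294002 in the BOP1 line, at 9.60 and 9.72 against 10.55 and 10.72 for CKS2, and at 9.64 and 9.52 against 10.52 and 10.39 for NFIL3. The treated and DMSO arrays do not overlap in any line, with 2 arrays a group. The share of all probes without overlap is not given here for this comparison. Probe 1 lay between 14.15 and 14.56 under LY294002 and above its DMSO arrays in each line.

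ID2 rose by 0.40 (probe 1, SE 0.10, limma adjusted p = 0.00345) and 0.45 (probe 2, SE 0.05, limma adjusted p = 9.55e-06) over the 3 lines. ID2 probe 2 lay between 12.54 and 12.72 on the 6 DMSO arrays of these lines and between 13.06 and 13.12 on the 6 LY294002 arrays, with no overlap. ID3 rose by 0.39 (SE 0.08, limma adjusted p = 0.00124), from 12.93 to 13.26 in DMSO to between 13.22 and 13.78. SMAD6 rose by 0.31 (SE 0.08, limma adjusted p = 0.0055), from 9.24 to 9.41 in DMSO to between 9.31 and 9.89, so that its arrays overlap. These 6 calls held under every alternative and every left-out array that was run.

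SMAD7, BMP4 and BAMBI showed no call over the 3 lines. Their differences were -0.04 (95% interval -0.21 to 0.14) and 0.10 (-0.10 to 0.30) for the SMAD7 probes, 0.02 (-0.14 to 0.18) for BMP4 and -0.07 (-0.23 to 0.09) for BAMBI. Thus 6 of 11 probes rose and 0 fell, against 20.7% and 22.7% over all probes, and their median of 0.31 stood beside -0.01 over all probes.

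Markers moved under LY294002 as well. KRT20, a keratin of differentiated colon cells, was lower over the 3 lines by 1.47 (limma adjusted p = 1.54e-05), with means of 7.64, 7.71 and 7.72 in DMSO and 6.08, 6.38 and 6.20 under LY294002, where it was detected on 5 of 6 arrays. KRT8, another keratin, rose by 0.27 (limma adjusted p = 0.00793), and the other 5 kept epithelial markers had no call over the 3 lines. CD68 rose by 0.59 (limma adjusted p = 0.000345) and ITGAM was called higher (0.00797), in the NFIL3 line at least 1.79-fold (6.89 against 5.96 in DMSO, not well above background). The leukocyte list summed to 476.6, 422.1 and 478.3 in DMSO in the BOP1, CKS2 and NFIL3 lines and to 541.4, 530.5 and 737 under LY294002, while the endothelial and fibroblast lists had no call. The part of these markers in the members' changes was not tested.

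In single lines the calls were fewer. In the BOP1 line 3 of 11 probes rose (background 8.48% higher, 8.93% lower), in CKS2 cells 5 (9.81% and 10.8%) and in NFIL3 cells 5 (10.8% and 11.3%), and 0 fell in any. ID1 probe 2 rose by 0.65 in the BOP1 line (limma adjusted p = 0.00643), 0.98 in CKS2 cells (0.000387) and 0.87 in NFIL3 cells (0.000724); the first call was lost without DMSO array 2 of the BOP1 line (0.072). ID2 probe 2 rose in all 3 by 0.43, 0.47 and 0.47, in the BOP1 line with an adjusted p of 0.0612 without DMSO array 2 and 0.0506 without LY294002 array 1. ID1 probe 1 rose by 0.42, 0.52 and 0.37. Its call was lost in the BOP1 line without DMSO array 1 (0.108), DMSO array 2 (0.0507) or LY294002 array 1 (0.189), in the CKS2 line without DMSO array 1 (0.0584) and in the NFIL3 line without any 1 of the 4 arrays (0.0706 to 0.112).

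ID3 rose by 0.56 in the CKS2 line (limma adjusted p = 0.0128) and by 0.43 in the NFIL3 line (0.0424), and differed by 0.19 in the BOP1 line (0.395). The CKS2 call was lost without DMSO array 1 (0.105) or LY294002 array 2 (0.133), and the NFIL3 call without DMSO array 1 (0.107), DMSO array 2 (0.169) or LY294002 array 2 (0.33). ID2 probe 1 rose by 0.60 in the CKS2 line (0.0212), lost without DMSO array 1 (0.124), DMSO array 2 (0.064) or LY294002 array 2 (0.252). SMAD6 rose by 0.46 in the NFIL3 line (0.0276), lost without DMSO array 2 (0.179) or LY294002 array 2 (0.171); in the CKS2 line it differed by 0.33 (0.111), and reached 0.0231 without LY294002 array 1.

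The test of the difference between lines found none among the members, whose largest was that of ATOH8 between the BOP1 and CKS2 lines (-0.56, 95% interval -1.25 to 0.14, limma adjusted p = 0.847). Of the 11 probes 0 had an unadjusted p under 0.05 by limma in any pair of lines. Over all kept probes 1321 did for the BOP1 against the CKS2 line. For the BOP1 against the NFIL3 line 2260 did, and for the CKS2 against the NFIL3 line 2327. Of the 11 probes 0 passed the threshold in each pair of lines. Over all probes 0% passed for the BOP1 against the CKS2 line, 0% for the BOP1 against the NFIL3 line and 0.0879% for the CKS2 against the NFIL3 line. The calls in single lines therefore do not show that the lines differ.

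Of the 79 other pathway genes, 22 rose and 16 fell under LY294002 over the 3 lines, with a median of 0.00. As shares of the list these counts lie near the 20.7% higher and 22.7% lower over all probes, so nothing is read from them about the list, and the genes below are named for their own values. BMP6, a ligand, was called lower (limma adjusted p = 1.69e-06): it was at least 1.93-fold lower for BOP1 cells (means 5.68 against 6.96) and at least 1.92-fold lower for CKS2 cells (5.75 against 6.89), both not well above background under LY294002, and stood at 5.95 against 7.08 for NFIL3 cells. GDF11, a ligand of the activin branch, fell by 0.79 (limma adjusted p = 4.3e-07). GDF15, a stress-induced ligand, rose by 0.85 (limma adjusted p = 6.48e-06) and CCN2, a matrix protein and TGF-beta target, by 0.79 (3.37e-06). GATA2, which fell with ATOH8 under SB203580, differed by -0.20 under LY294002 over the 3 lines (limma adjusted p = 0.028). In single lines it differed by -0.46 in BOP1 cells (limma adjusted p = 0.0163) and by 0.005 in CKS2 cells (0.983). The call over the 3 lines was lost without DMSO array 1 of any line. It was also lost without LY294002 array 2 of the BOP1 line or LY294002 array 1 of the CKS2 or NFIL3 line.

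Rapamycin, given to the NFIL3 line, gave 1 call among the members. ID2 probe 2 was 13.05 and 13.04 against 12.63 and 12.61 in DMSO (0.42, SE 0.10, limma adjusted p = 0.0204), lost without any 1 of the 4 arrays (0.0848 to 0.102). Thus 1 of 11 probes rose and 0 fell, against 3.1% and 2.69% over all probes. ID2 probe 1 (0.45, adjusted p 0.132), ID1 probe 1 (0.32, 0.0986) and ID1 probe 2 (0.43, 0.0948) lay above DMSO without a call by limma, while ID3 (0.09) and SMAD6 (0.08) lay near it. Against Rapamycin, LY294002 in the same line gave higher ID1 probe 2 (0.45, SE 0.14, limma adjusted p = 0.0492), a call lost with the replicate number as a block (0.0563) or without any 1 of the 4 arrays (0.0958 to 0.225). SMAD6 differed by 0.38 (limma adjusted p = 0.0839) and ID3 by 0.34 (0.126). That made 1 of 11 probes higher and 0 lower, against 7.22% and 6.91% over all probes. Of the other pathway genes 8 rose and 4 fell under Rapamycin, led by BHLHE40, a bHLH repressor (-0.66, limma adjusted p = 0.00499), and BMP1, a protease of matrix and BMP antagonists (0.60, 0.00944); each call was lost without DMSO array 1 (0.0544) for BHLHE40 and DMSO array 2 (0.0698) or Rapamycin array 2 (0.075) for BMP1.

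In the BOP1 line, SP600125 and DAPT gave no call, with 0% of all probes past the threshold for either. By limma, 2503 probes under SP600125 and 2698 under DAPT had an unadjusted p under 0.05, among them 1 and 2 member probes. Under DAPT, ID3 was 12.35 and 12.39 against 13.26 and 12.97, so that its arrays lay below both DMSO arrays (-0.75, SE 0.14, limma adjusted p = 0.0695). Its adjusted p was 0.0419 with an offset of 50 and 0.00713 in the authors' processed table, where 22 and 58 probes were called in all. ID1 probe 2 differed by -0.40 under DAPT (limma adjusted p = 0.284). Under SP600125, ID2 probe 2 differed by 0.29 (limma adjusted p = 0.269). The BOP1 line received neither SB203580 nor Rapamycin.

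**Figure D4:**
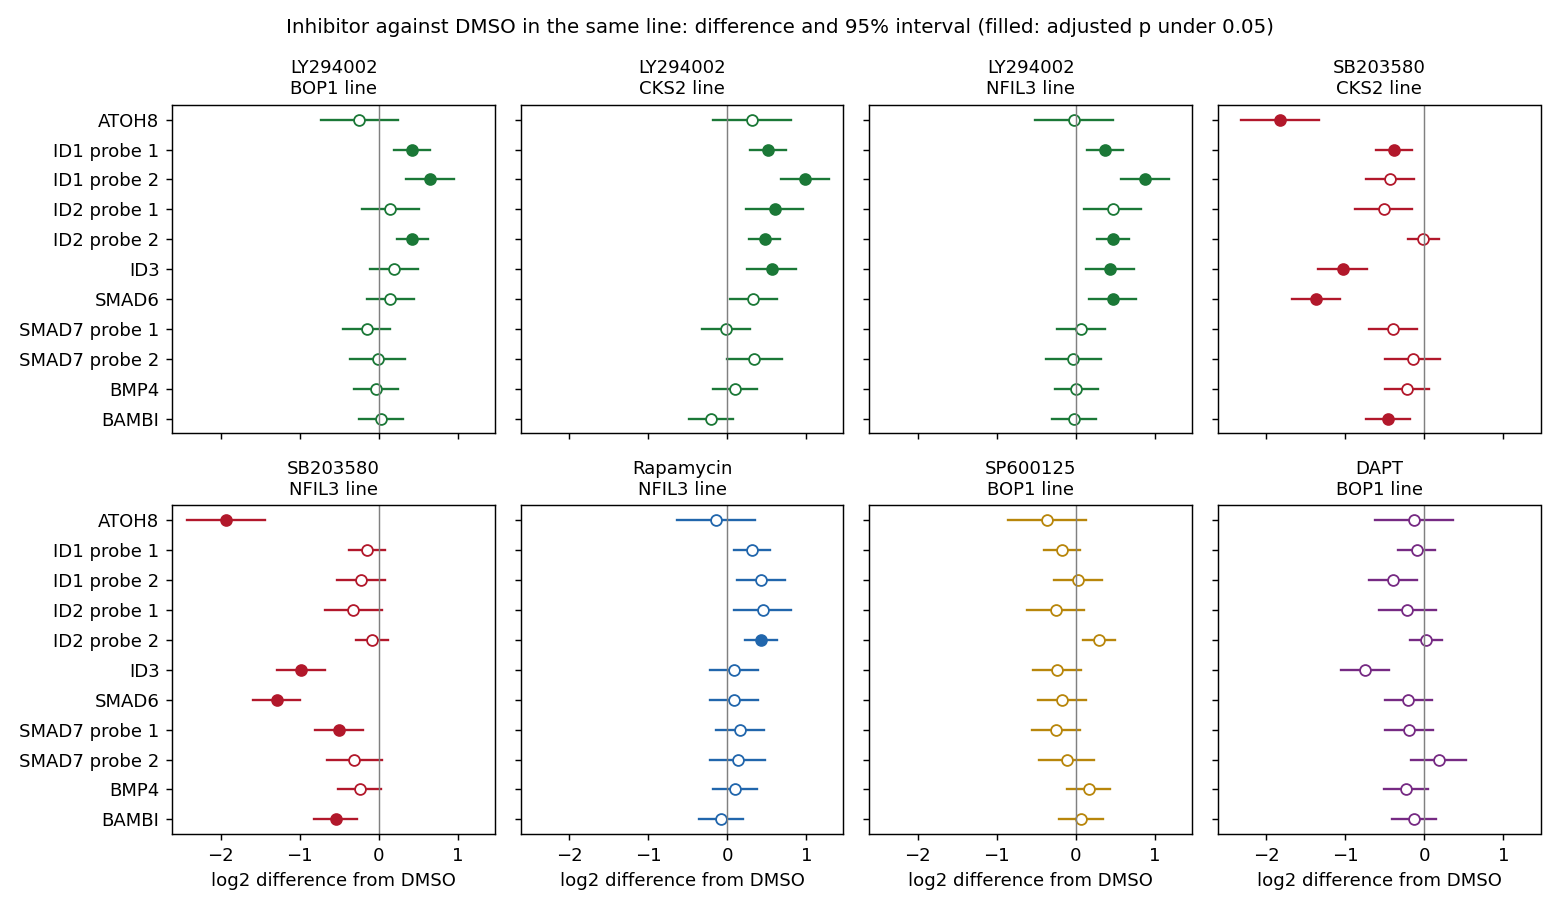
Log2 difference from DMSO of the same line for the 11 probes under each inhibitor, with 95% intervals; filled points have a limma adjusted p under 0.05. Under SB203580 every point lies below zero in both lines, with ATOH8 (fitted values against arrays at background), ID3 and SMAD6 farthest out, and under LY294002 ID1 probe 2 lies farthest above zero in each line, from 0.65 to 0.98. Comparisons within a line share that line's 2 DMSO arrays.

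LY294002 and SB203580 were given at the same dose to the CKS2 and NFIL3 lines, and the difference between them needs no DMSO array. In the CKS2 line 9 of 11 probes were higher under LY294002 and 0 lower, against 18.7% and 18.8% of all probes. In the NFIL3 line 9 were higher and 0 lower, against 16.8% and 16.8%. SMAD6 was 9.48 and 9.89 against 8.11 and 7.87 in the CKS2 line (1.70, SE 0.14, limma adjusted p = 8.94e-07) and 9.71 and 9.87 against 8.03 and 8.04 in the NFIL3 line (1.76, limma adjusted p = 7.7e-07). ID3 differed by 1.60 and 1.42 (limma adjusted p = 1.58e-06 and 5.76e-06), and ID1 probe 2 by 1.41 and 1.10 (4.14e-06 and 4.54e-05). ATOH8, among the 9 probes in both lines, was at least 2.29-fold and at least 2.25-fold higher under LY294002 (limma adjusted p = 7.21e-06 and 2.51e-05). It was chosen from these data and passed the detection filter only through the groups where it was high, LY294002 groups included. Its p-values here are therefore a description and no independent test.

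ID2, which neither SB203580 comparison called, was higher under LY294002 than under SB203580 with both probes: by 1.11 and 0.48 in the CKS2 line and by 0.79 and 0.55 in the NFIL3 line. BMP4 differed by 0.32 (limma adjusted p = 0.0644) and 0.25 (0.153), with no call. BAMBI differed by 0.26 in the CKS2 line (0.139) and by 0.52 in the NFIL3 line (0.00643, and 0.0705 without SB203580 array 2). SMAD7 probe 1 was higher by 0.38 (0.0458, and 0.354, 0.145 and 0.119 without LY294002 array 1, SB203580 array 1 and SB203580 array 2) and 0.56 (0.00632, and 0.0706 without LY294002 array 2 or 0.0684 without SB203580 array 2). SMAD7 probe 2 was higher in the CKS2 line by 0.49 (limma adjusted p = 0.0277), lost without LY294002 array 2 (0.211) or SB203580 array 1 (0.21), and differed by 0.28 in the NFIL3 line (limma adjusted p = 0.21). These differences use the same LY294002 and SB203580 arrays as the comparisons with DMSO and are no separate evidence.

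Over the 12 group means, the members' levels moved together to different degrees. These correlations describe 12 points that share lines, arrays and normalization. ID1 probe 1 and ID2 probe 1 were the closest pair of different genes, with Pearson r = 0.949, followed by ID3 and SMAD6 with 0.936, and 0.910 over the 10 groups without SB203580. ATOH8 and SMAD6 correlated at r = 0.905, and at 0.78 without SB203580. Among those 10 groups ATOH8 was at background in the control line only (5.23) and at 6.87 to 7.35 elsewhere. The control line, used to choose ATOH8, thus lies far apart from the rest in this r, and r without it was not computed. ATOH8 and SMAD7 probe 1 had r = 0.62, and -0.291 without SB203580, so their likeness rests on the SB203580 groups. Probes of 1 gene correlated at 0.944 for ID1 and 0.84 for ID2, but at 0.506 for SMAD7, whose probes lay at -0.055 without SB203580.

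**Figure D5:**
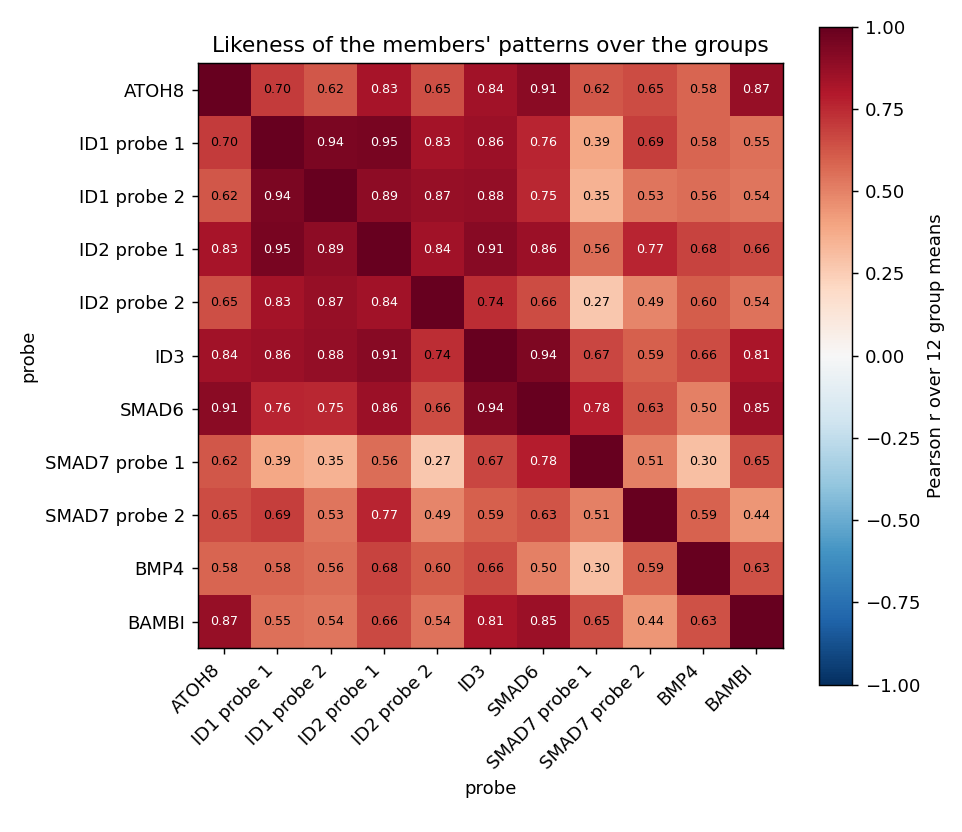
Pearson r between the 11 probes over the 12 group means; red is positive and blue negative. Every square is positive. By this r, in which 3 groups have ATOH8 at background, ATOH8 is most like SMAD6 (0.91) and BAMBI (0.87). By ranks (Spearman rho, not drawn) it is most like ID3 (0.762), with 0.734 for SMAD6 and 0.517 for BAMBI. ID2 probe 2 and SMAD7 probe 1 are the least alike pair by Pearson r, at 0.27.

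The genes whose group means were most like each member's were sought among 8347 genes with 1 symbol and a range of at least 0.5 log2 units. For ATOH8 they were CCM2L (r = 0.974), RTBDN (0.961) and SLC8A2 (0.959). The closest gene was GRN for ID1 (0.985), UROS for ID2 (0.982), ASAP3 for ID3 (0.98), ZSCAN2 for SMAD6 (0.979), HDAC7 for SMAD7 (0.939), ACSL5 for BMP4 (0.899) and CD24 for BAMBI (0.971). GRN, the secreted growth factor progranulin, stood at 10.88 in the control line, 11.48 to 11.54 in the other lines in DMSO, 12.17 to 12.53 under LY294002 and 10.99 and 11.04 under SB203580. CD24, a surface glycoprotein, stood at 10.44 in control, 11.08 to 11.22 in the other lines in DMSO and 10.45 and 10.39 under SB203580. With 12 points and 8347 candidates a high r is not rare, and these names are a description of likeness only.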

How the data were processed

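RNA of 24 SW480 arrays (12 groups of 2) was measured on Illumina bead arrays. The authors deposited non-normalized probe intensities with detection p-values, per the file headers, and GenomeStudio 2010.1 and Partek are named, per the submitters' processing notes. A further table of the authors' processed values, log2-transformed here, was used as an alternative. Here the deposited intensity was background-corrected, quantile-normalized and log2-transformed with limma's neqc (offset 16), and 21608 of 47323 probes with a detection p under 0.01 on at least 2 arrays were kept. limma (lmFit, eBayes) was fitted to all 24 arrays with 1 mean per group, over 22 comparisons, with Benjamini-Hochberg adjustment over all kept probes of each comparison and a threshold of 0.05. Residual degrees of freedom were 12 and the prior added 3.91. R 4.3.3, limma 3.58.1, data.table (version 1.17.8) and, for figures, matplotlib were used, and the fit was tested on simulated data.

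Probe symbols came from the platform annotation: 30113 probes have 1 symbol, 8 several and 17202 none. Precision is limited by having 2 arrays a group, with a median standard error of 0.145 for a difference between 2 groups. Biological replicates are named in the labels without saying whether separate cultures were used, so p-values reflect array-to-array spread that may be technical only. Replicate numbers pair nothing in the labels, and deviations of same-numbered arrays correlated at -0.0963 to 0.295 (above 0.1 in 2 of 66 pairs of groups).

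The members and the gene lists were chosen with earlier results of these data known. All member probes are named, SMAD4 always, and of the other lists up to 4 genes with the smallest p among those called in a comparison, with their values in the other line and in marker lists beside them; for each member, genes with the highest Pearson r over 12 group means. Alternatives were an offset of 50, the authors' processed table, no detection filter, 1 probe per gene, only the arrays compared, the replicate block and each array left out. No chip is given in the sources used here, so it was not fitted as a block.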

Additional observations from a re-analysis of the deposited data

How the results depend on the processing

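Values of the 11 member probes were recomputed 2618 times under the alternatives, 2297 of them in tested comparisons; 0 called values reversed and 107 uncalled ones changed sign. The 6 LY294002 calls over the 3 lines, and in the CKS2 line the SB203580 calls of ATOH8, ID3 and SMAD6, were kept throughout. For ATOH8 this is no separate evidence, since its choice used the same DMSO arrays. The counts below are member genes called, then all probes called where given. Where a member count stands without a count over all probes, nothing is read from it. The causes of the moves were not tested, except that leaving out arrays or fitting 4 arrays leaves fewer samples. Member counts against control come from the comparisons that chose ATOH8, so nothing is read from them or from whether they held.

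Without a detection filter, all probes called against control went from 2384 to 1287 (BOP1 line), 2376 to 1468 (CKS2) and 2313 to 1447 (NFIL3). Member genes went from 4 to 2 under LY294002 in the NFIL3 line, from 5 to 3 under SB203580 in the CKS2 line (all probes 2036 to 1330), from 1 to 0 under Rapamycin (1250 to 541) and from 1 to 0 for LY294002 minus Rapamycin. The LY294002 effect, CKS2 minus NFIL3 line, went from 19 to 6 probes, and both the BOP1 minus CKS2 and the BOP1 minus NFIL3 lines from 1 to 0.

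With only the arrays compared, member genes against control went from 5 to 3, 7 to 3 and 3 to 0 (all probes 801, 1163 and 0). Under LY294002 they went from 2 to 0, 3 to 1 and 4 to 1 in the BOP1, CKS2 and NFIL3 lines (3763 to 485, 4450 to 242 and 4754 to 1669). Under SB203580 they went from 5 to 3 in the CKS2 line and 5 to 0 in the NFIL3 line (1149 and, from 2141, 0), and under Rapamycin from 1 to 0 (0). LY294002 minus Rapamycin went from 1 to 0 (3054 to 571), LY294002 minus SB203580 from 8109 to 3909 and 7256 to 4212 probes, and the LY294002 effect of CKS2 minus NFIL3 and both line differences to 0.

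With 1 probe per gene, member genes under LY294002 in the BOP1 line went from 2 to 1, and under Rapamycin and for LY294002 minus Rapamycin from 1 to 0. All probes went to 3148 for LY294002 in the NFIL3 line, from 9383 to 5970 for its mean, from 0 to 1 for DAPT, to 2000 for LY294002 minus Rapamycin, to 5336 and 4784 for LY294002 minus SB203580, from 0 to 17 for the LY294002 effect of BOP1 minus NFIL3 and from 19 to 36 for CKS2 minus NFIL3.

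In the authors' processed table, 16 probes were called under SP600125 and 58 under DAPT (1 member gene). Member genes went from 1 to 2 under Rapamycin and from 1 to 2 for LY294002 minus Rapamycin. The counts over all probes in that table are not given here for either comparison, so nothing is read from these rises. The LY294002 effect gave 252 (BOP1 minus NFIL3) and 251 (CKS2 minus NFIL3), and the lines 2 (BOP1 minus CKS2) and 6 (BOP1 minus NFIL3). With an offset of 50 the counts were 2 for SP600125, 22 for DAPT (1 member gene), 52 and 105 for these LY294002 effects and 2 for BOP1 minus CKS2.

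With the replicate block, the LY294002 effect of CKS2 minus NFIL3 went from 19 to 8 probes, BOP1 minus NFIL3 from 1 to 0 and the member genes of LY294002 minus Rapamycin from 1 to 0; it moved no other count by over 1.5 times.

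With 1 array left out in turn, member genes against control ranged from 1 to 2, 2 to 3 and 1 to 2 in the BOP1, CKS2 and NFIL3 lines (605 to 942, 671 to 992 and 598 to 1181 probes). Under LY294002 they ranged from 0 to 2 (BOP1) and 2 to 4 (NFIL3), with 1617 to 2961, 2078 to 4102 and 2230 to 3400 probes. Under SB203580 they were 3 to 4 in both lines (598 to 1004 and 765 to 1093), and under Rapamycin 0 to 0 (116 to 382). LY294002 effects gave 0 to 12 (BOP1 minus CKS2), 0 to 7 (BOP1 minus NFIL3) and 0 to 235 (CKS2 minus NFIL3), and the lines 0 to 0, 0 to 1 and 0 to 1. LY294002 minus Rapamycin gave 0 to 0 member genes (1220 to 1787), and LY294002 minus SB203580 in the NFIL3 line 4767 to 5638 probes. A lone array left in a group is assumed to vary like the other groups.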

Other observations

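Some single genes of the pathway lists are given here for LY294002 over the 3 lines; they were singled out after their values were seen and show no change of the lists as such. Of 8 tested BMP receptors and co-receptors 2 rose and 1 fell, and of 6 receptor and common SMADs 2 rose and 0 fell, against 20.7% higher and 22.7% lower over all probes. The type II receptor BMPR2 rose by 0.56 (SE 0.07, limma adjusted p = 1.63e-05), PPM1A, a phosphatase that acts on SMADs, by 0.53 (limma adjusted p = 7.63e-06), and SMAD3, a receptor SMAD of the TGF-beta branch, by 0.43 (limma adjusted p = 0.000646). SMAD5, which carries BMP signals, rose by 0.19 (limma adjusted p = 0.0117), while SMAD4 (0.04, limma adjusted p = 0.613), SMAD1 (-0.08, 0.65), SMAD2 (-0.09, 0.472) and SMAD9 (0.00, 0.988) had no call, nor had the receptors ACVR1 (0.00) and ACVR1B (0.07). Among other bHLH factors, MXD1 and MXI1, partners of MAX that oppose MYC, rose by 0.74 (limma adjusted p = 3.37e-05) and 0.61 (7.59e-05), and BHLHE40 fell by 0.45 (2.8e-05). The calls of these rising and falling genes held under every alternative and every left-out array that was run.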
